A study of Gallus gallus with 6 samples.

Results

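The chicken miRNAs mir-23 and mir-27, written miR-23 and miR-27 here, are 2 of the 127 names in the lists of known miRNAs of a small RNA series from chick embryo heart. Their members were taken as the rows of the known lists that carry either name, plus any row of the lists of other sequences whose hairpin overlapped such a row on the same chromosome and strand. The first rule gave 8 listed sequences, each mature sequence counted once per library, of 1102 listed sequences in all. The second rule gave 0 rows, so every sequence and read count of the members below comes from the known lists.

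The series held 6 libraries of Gallus gallus heart, with no treatment named in the labels, at days 4, 6, 8, 10, 12 and 14 of incubation, assigned to HH24, HH29, HH34, HH36, HH38 and HH40 (Hamburger-Hamilton stages). Each library was made from the RNA pool of 1 stage, from whole hearts in which all cell types were present, so a change in cell composition and a change in RNA per cell cannot be told apart. No stage was replicated, and no test was run between stages. Intervals are 95% and cover counting error only.

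A miRNA is cut from a folded precursor, the hairpin, whose arms give a mature strand and a less abundant opposite strand, and the bases near the 5′ end of the mature strand (the seed) pair with target mRNAs. In vertebrates, miR-23, miR-27 and miR-24 are encoded next to one another and are transcribed together. In mammals the cluster is known for its expression in endothelium and its part in angiogenesis, and in the mouse miR-27b has been tied to cardiac hypertrophy and to repression of Pax3 in muscle precursors.

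The mature sequences are shown because they carry the length forms and the seeds on which the comparison of the members rests. Capitals mark bases 2 to 8, counted from 1 at the 5′ end, and T stands for U as in the lists.
miR-23, days 6 and 8: aTCACATTgccagggattaccac
miR-23, day 12: aTCACATTgccagggattacc
miR-27, days 4, 6, 10, 12 and 14: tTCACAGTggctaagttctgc
The seeds of miR-27 and miR-23 differed by 1 base, G7T, with the base of miR-27 first. Over the first 21 bases aligned without gaps, 11 positions were alike. Bases 2 to 6 were the same in both, and of the 830 distinct sequences listed in the series only these 3 (0.361%) had them. No other name in the lists had either seed.

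miR-128, a miRNA best known from brain, carried the seed letters of miR-27 shifted by 1 base. Its first 8 bases were bases 2 to 9 of miR-27, shown in capitals.
miR-27: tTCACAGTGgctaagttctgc
miR-128: TCACAGTGaaccggtctcttt
miR-128 was chosen for this comparison after the lists had been seen. miR-27 had 1.93 times the reads of miR-128 at day 6 (7148, against 3705), 5.96 times at day 10 (39249, against 6586) and 28.3 times at day 12 (178083, against 6285). miR-128 was not listed on the other days.

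Both members lie on the plus strand of chromosome Z of the chicken genome (Gallus gallus v.2.1), each with 1 genomic hit. The hairpin of miR-23 was placed at chrZ:41157411-41157484 and that of miR-27 at chrZ:41157651-41157727. They are printed with the mature sequence in capitals, to show that both mature sequences came from the 3′ arm.
miR-23 hairpin: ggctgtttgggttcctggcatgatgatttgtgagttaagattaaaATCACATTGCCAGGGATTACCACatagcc
miR-27 hairpin: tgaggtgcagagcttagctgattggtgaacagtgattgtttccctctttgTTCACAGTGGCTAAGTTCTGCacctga
The hairpins were 166 bases apart, and the mature sequences began 245 bases apart. The deposited folding energy was -32.3 kcal/mol for the 74 nt of miR-23 and -41.2 kcal/mol for the 77 nt of miR-27. Per 100 nt the deposited energies were -43.6 kcal/mol for miR-23 and -53.5 kcal/mol for miR-27. Refolding gave -31.7 kcal/mol for the hairpin of miR-23 and -40.6 kcal/mol for that of miR-27. By the deposited energy per 100 nt miR-23 ranked 57th from the most stable of 112 known sequences on day 6, and miR-27 ranked 11th. The list of day 12 gave miR-23 a hairpin trimmed to 72 nt (-29.0 kcal/mol), and that of day 10 gave miR-27 one of 73 nt (-40.1 kcal/mol). In the day 6 folds 19 of the 23 bases of miR-23 and 19 of the 21 bases of miR-27 were paired.

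Another locus stood downstream of miR-27 in 1 library. On day 10 the list of other sequences, which the authors had not assigned to a known miRNA, held a 21 nt sequence at chrZ:41158218-41158238 on the plus strand, with bases 2 to 8 in capitals.
downstream locus, day 10: tGGCTCAGttcagcaggaaca
Its hairpin began 446 bases after that of miR-27, and the 3 hairpins spanned 831 bases. It had 359 reads, 105 RPM (the deposited level, which is the read count times 1 constant per library), which ranked it 12th of 354 sequences in that list, and miR-27 had 109 times as many reads in the same library. No other locus was listed within 50 kb on either side of the miR-23 hairpin. In the RefSeq gene table, of another assembly, MIR23B, MIR27B and MIR24-2 follow one another in this order inside the span of AOPEP, which encodes aminopeptidase O. The downstream locus follows miR-27, as MIR24-2 does in that order, but its sequence was not matched to a miRNA. No row of the known lists was named miR-24 or miR-3074, which does not show that miR-24 was absent.

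**Figure D1:**
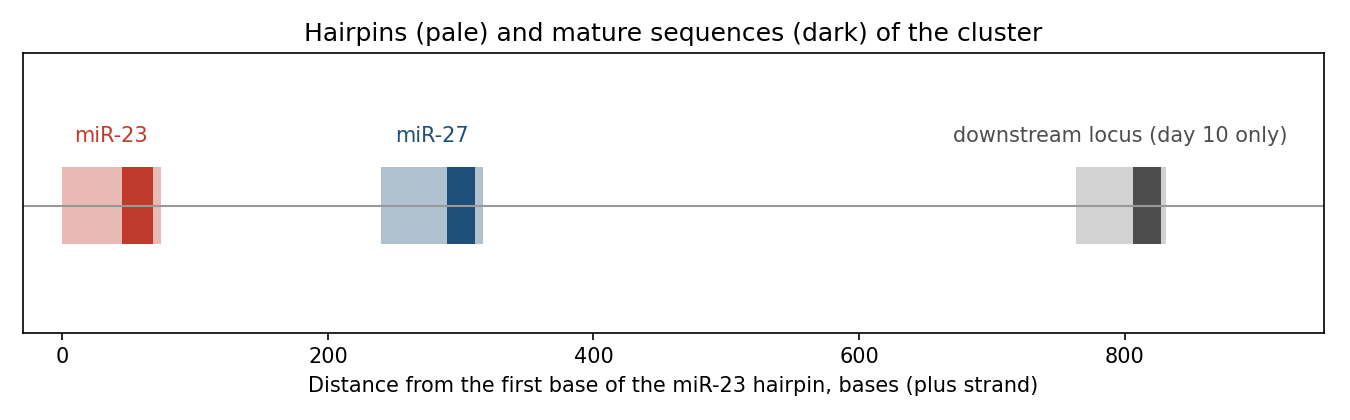
Map of the cluster on the plus strand of chromosome Z, with the distance in bases from the first base of the miR-23 hairpin on the x axis. Pale bars are hairpins and dark bars mature sequences; 166 bases part the hairpins of miR-23 and miR-27 and 446 bases part that of miR-27 from the downstream locus, listed on day 10 only.

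miR-27 was listed in 5 libraries and peaked on day 10 by RPM. It had 15 reads at day 4, 7148 at day 6, 39249 at day 10, 178083 at day 12 and 18 at day 14. In RPM this was 5.37 (3.01 to 8.86) at day 4, 773 (755 to 791) at day 6, 11449 (11336 to 11563) at day 10, 4749 (4727 to 4772) at day 12 and 78.8 (46.7 to 124.6) at day 14. The levels of days 10 and 12 stood above all others, and the intervals of the 5 libraries did not overlap. The level on day 10 was 2.41 times that on day 12 (2.38 to 2.44).

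The order of the highest days turned with the denominator. Of all reads in the known list, miR-27 made up 0.0881% (0.0493 to 0.145) at day 4, 0.217% (0.212 to 0.222) at day 6, 2.26% (2.24 to 2.28) at day 10, 2.32% (2.31 to 2.34) at day 12 and 0.113% (0.0669 to 0.178) at day 14. Days 10 and 12 were thus nearly level as shares, and days 4 and 14 overlapped. Scaled by the clean reads that the paper states, in the unit of RPM, miR-27 was higher on day 12 (4173) than on day 10 (1923). The deposited RPM corresponded to 3.43e+06 reads at day 10 and 3.75e+07 reads at day 12. Both were fewer than the clean reads stated for these days. Which scale gives the right order of days 10 and 12 was not tested. One read was worth between 0.0267 RPM at day 12 and 4.38 RPM at day 14, and the known lists held from 15957 reads at day 14 to 7660483 at day 12. Among the distinct known sequences of its library, miR-27 ranked 21st of 34, 21st of 112, 5th of 76, 14th of 123 and 31st of 41 on days 4, 6, 10, 12 and 14.

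miR-23 was listed in 3 libraries, with 725 reads at day 6, 2062 at day 8 and 15913 at day 12. Its RPM was 78.4 (72.8 to 84.3) at day 6, 369 (353 to 385) at day 8 and 424 (418 to 431) at day 12. The level on day 12 was 1.15 times that on day 8 (1.10 to 1.20). As a share of known reads the order of these days turned: 0.0221% (0.0205 to 0.0237) at day 6, 0.245% (0.234 to 0.256) at day 8 and 0.208% (0.205 to 0.211) at day 12. It ranked 54th of 112, 22nd of 51 and 34th of 123 known sequences on these days, below miR-27 on both days that listed both.

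**Figure D2:**
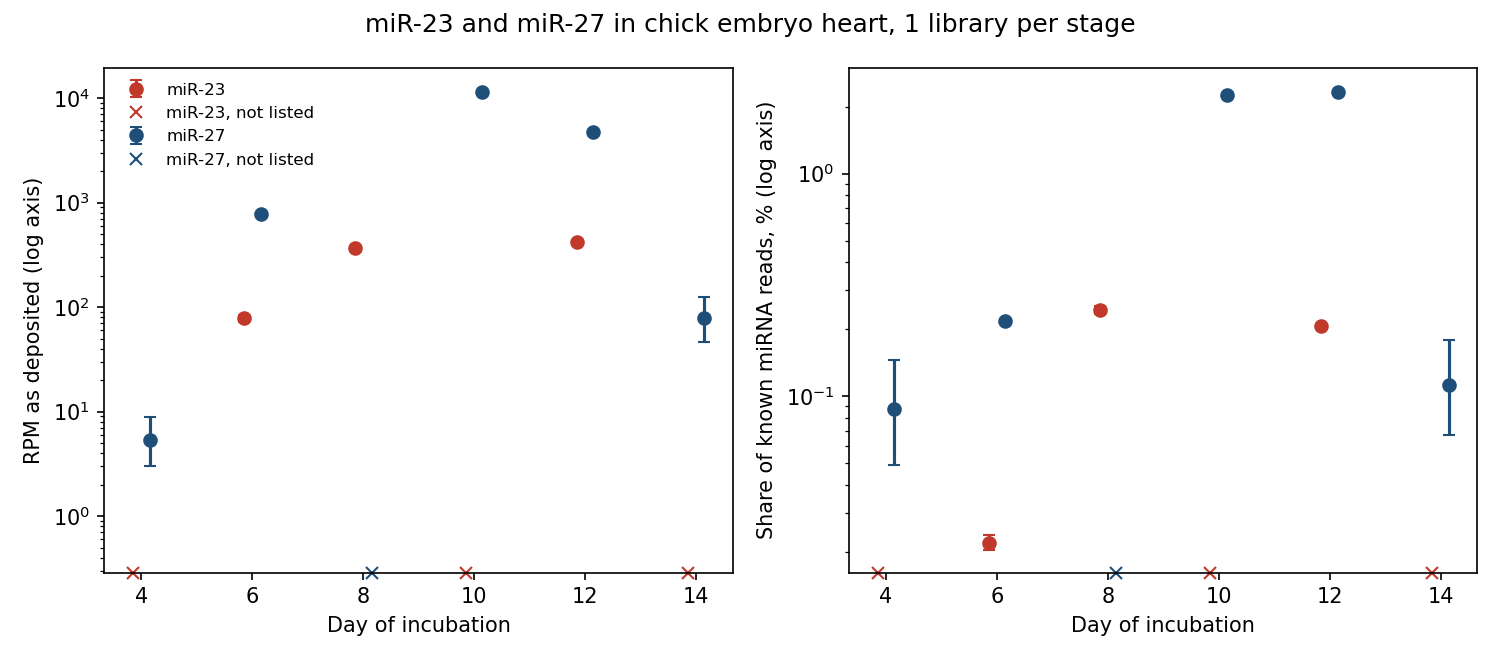
Levels of miR-23 and miR-27 by day of incubation, as deposited RPM (left) and as a share of known miRNA reads in percent (right), both on log axes, with 1 library per day, 95% counting intervals as bars and crosses on the x axis for a member not listed. miR-27 was highest at day 10 by RPM (11449) and at day 12 by share (2.32%), and miR-23 at day 12 by RPM (424) and at day 8 by share (0.245%).

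The lists differed in the lengths they held. In every library each locus was listed in 1 length form only, with 0 overlapping loci of different ends. miR-27 was always 21 nt long. The list of day 8, the only one without miR-27, held no sequence of 21 nt among its 51 known and 91 other sequences, and 45 of the known ones had 23 nt. miR-23 had 23 nt on days 6 and 8, and 21 nt on day 12. miR-23 was missing from lists that held its lengths: that of day 10 had 71 of 76 known sequences at 21 nt, and that of day 4 had 13 of 34 at 23 nt. The list of day 14, with 38 of 41 at 22 nt, also lacked it but had miR-27 as 1 of 2 known sequences of 21 nt. The part of these length limits in the missing values was not tested, so a member not listed is not a member at 0. The lowest listed abundance was 2 reads on day 10 and 6 or 7 reads in the other known lists.

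**Figure D3:**
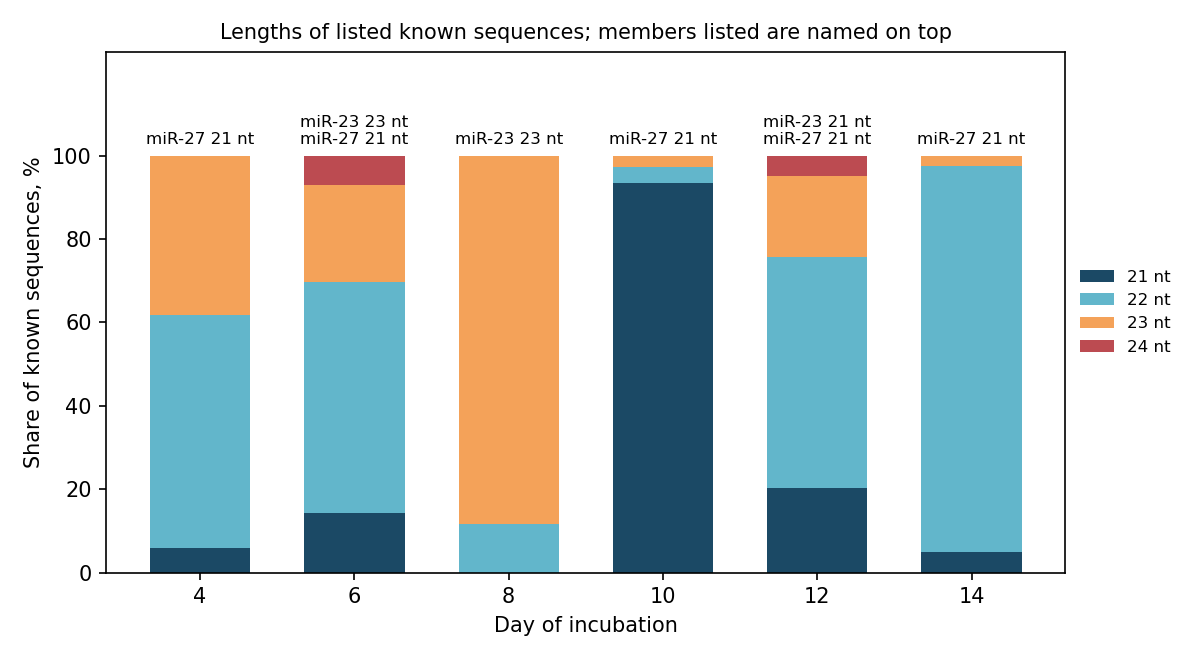
Lengths of the known sequences in each library, as stacked shares in percent by day of incubation, with the members listed that day and their length named on top. The day 8 list has no 21 nt sequence and no miR-27, and 71 of the 76 known sequences of day 10 had 21 nt.

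Set against known sequences of its own length, miR-27 was among the 5 highest on days 6, 10 and 12, and on days 4 and 14 it was the lower of only 2. It took 20.0% of the 75 reads of 21 nt at day 4 (11.6 to 30.8), 8.92% of 80167 at day 6 (8.72 to 9.12), 2.27% of 1730531 at day 10 (2.25 to 2.29), 12.3% of 1447059 at day 12 (12.3 to 12.4) and 5.77% of 312 at day 14 (3.45 to 8.96). On days 4 and 14 the other known sequence of 21 nt was miR-126, with 60 and 294 reads. Among the 21 nt sequences miR-27 ranked 2nd of 16 at day 6, 5th of 71 at day 10 and 3rd of 25 at day 12. miR-23 took 0.650% of the 23 nt reads at day 6 (13th of 26), 0.245% at day 8 (22nd of 45) and, at 21 nt, 1.10% at day 12 (6th of 25).

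The difference in listed length of miR-23 between days 6 and 12 was uncommon among loci with a fixed 5′ end. Each library listed 1 length form per locus, so these are the lengths of the listed forms, and other forms cannot be seen. Known and other sequences together gave 148 loci with the same 5′ end on days 12 and 6. Of these, 127 had the same length, 16 were 1 nt shorter on day 12, 3 were 1 nt longer and 2 were 2 nt shorter. miR-23 was 1 of the last 2.

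Within a library, miR-23 was the lower member of the cluster. On day 6 it had 725 reads, against 7148 of miR-27, a log2 ratio of -3.30 (-3.41 to -3.19). On day 12 it had 15913 reads, against 178083 of miR-27, a log2 ratio of -3.48 (-3.51 to -3.46). miR-27 was thus 9.86 times miR-23 on day 6 and 11.2 times on day 12. Only on day 12 did both have the same length, and the reads of the 2 days refer to different forms of miR-23.

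Other clustered pairs also had unequal members. miR-181b, which lies beside miR-181a, was listed with it in all 6 libraries at log2 ratios of -3.26, -1.76, -3.97, -4.32, -3.98 and -4.45 from day 4 to day 14. These ratios do not compare the same forms on every day: miR-181b had 24 nt on days 6 and 12, a length absent from the other known lists. miR-222 had 70 reads, against 542 of its neighbour miR-221, on day 10 (log2 ratio -2.95), and miR-221 was listed on that day only. For miR-100, miR-144 and miR-199 the partners miR-125, miR-451 and miR-214 were not listed. No difference between these pairs and the pair of miR-23 and miR-27 was tested.

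By RPM both members were higher on day 12 than on day 6, while the median known sequence was lower. miR-27 had 4749 RPM on day 12, against 773 RPM on day 6, a 6.14-fold difference (6.00 to 6.29) or a log2 ratio of 2.62. miR-23 had 424 RPM on day 12 (21 nt), against 78.4 RPM on day 6 (23 nt), a 5.41-fold difference (5.02 to 5.84) or a log2 ratio of 2.44. Over the 87 known sequences listed on both days the median log2 ratio was -1.09, so miR-27 stood 3.71 and miR-23 stood 3.53 above it on the log2 scale. At least 4-fold higher on day 12 were 13 of the 87 (14.9%), and 41 (47.1%) were at least 4-fold higher or lower. miR-27 ranked 9th from the highest of the 87, and 2nd of the 13 of 21 nt, whose median log2 ratio was 0.03. miR-23 is not among the 87, since its 2 forms differ. Scaled by the known reads of the same length, a setting chosen after seeing the data, neither member differed 4-fold. miR-27 was 1.38-fold higher on day 12 and ranked 32nd of the 87. Of the 21 nt reads that divide it, miR-126 held 62609 of 80167 on day 6 and 876501 of 1447059 on day 12. miR-126 itself had a log2 ratio of 1.79 by RPM. miR-23 was 1.69-fold higher, but its share of 23 nt reads on day 6 was set against its share of 21 nt reads on day 12.

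**Figure D4:**
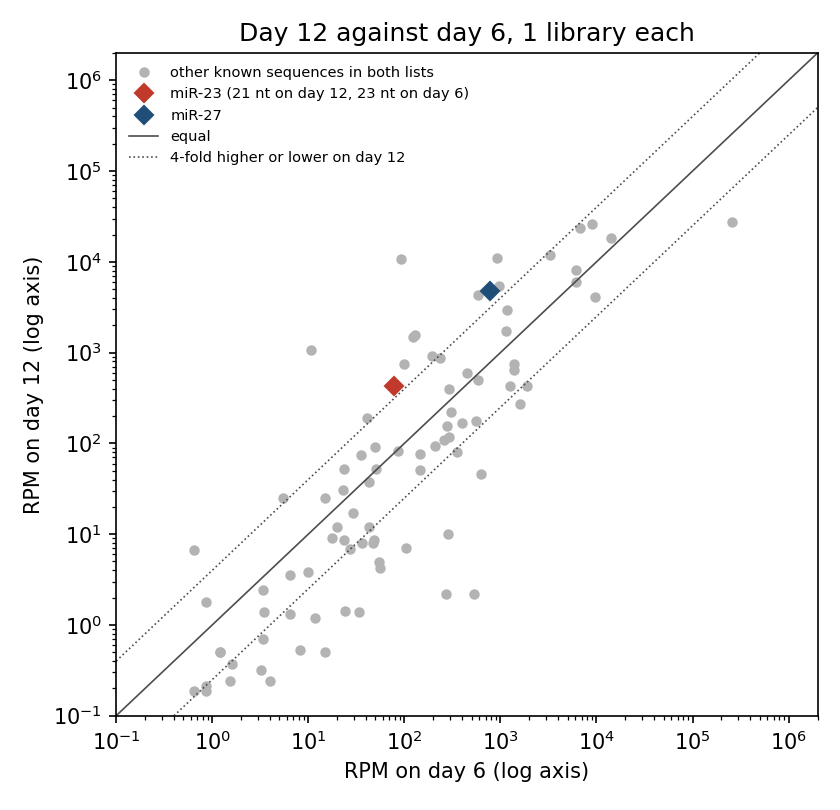
RPM on day 12 (y axis) against RPM on day 6 (x axis), both log axes, for the known sequences listed in both libraries (grey and blue) and for miR-23, whose forms differ in length (red). miR-27 and miR-23 lie above the upper dotted line of 4-fold difference, at log2 ratios of 2.62 and 2.44 by RPM, where the median was -1.09.

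The opposite strands of the members were rare, and they are shown because their letters place both strands on the hairpin.
miR-27, 5′ arm, 22 nt: agagcttagctgattggtgaac
miR-23, 5′ arm, 21 nt: gggttcctggcatgatgattt
The 22 nt form of miR-27 had 45 reads at day 6, 2 at day 10, 665 at day 12 and 1 at day 14, and a form without its last base had 1 read at day 6 and 8 at day 12. On the 77 nt hairpin the 22 nt form filled bases 9 to 30 and the mature strand bases 51 to 71, with 20 bases between them. Of the reads of both arms, the 5′ arm gave 0.639% at day 6 (0.469 to 0.852), 0.00510% at day 10 (0.000617 to 0.0184) and 0.376% at day 12 (0.349 to 0.406). The list of day 10 was nearly free of 22 nt sequences, with 3 among its 76 known ones, and whether this bears on the low share was not tested. The 5′ arm of miR-23 had 3 reads on day 12, against 15913 of the mature strand (0.0188%, 0.00389 to 0.0551), and none on days 6 and 8. Among known sequences with any opposite strand the median share was 2.58% at day 6 (61 of 112), 2.17% at day 10 (45 of 76) and 1.24% at day 12 (64 of 123), and miR-27 lay below it on each of these days. On day 10 miR-27 had the lowest share of the 45. On day 14, with 1 read of the 5′ arm and 18 of the mature strand, its share was 5.26% (0.133 to 26.0), against a median of 0.834% over 8 sequences.

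By the profile over libraries, the miRNAs most like miR-27 were miR-126, miR-100 and miR-101. Likeness was the root mean square difference of log2 RPM after each profile was centred, over the 28 families listed in at least 4 of the libraries of miR-27. It was 0.87 for miR-126 and 1.17 for miR-100 over 5 libraries each, and 1.18 for miR-101 over 4, where the median family had 2.79. These profiles share the denominators of the libraries and were given no test. They also join different lengths, since the only 21 nt known sequences of days 4 and 14 were miR-27 and miR-126. miR-100 on both days and miR-101 on day 14 thus had other lengths. miR-126, the defining miRNA of endothelium, had 21.5, 6771, 203858, 23376 and 1288 RPM on days 4, 6, 10, 12 and 14 and, like miR-27, always 21 nt and no row on day 8. miR-23, in 3 libraries, could not be compared in this way.

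The ratio of miR-27 to miR-126 within a library needs no denominator and compares equal lengths. It was 15 reads, against 60, at day 4, a log2 ratio with an interval of -2.92 to -1.17. The log2 ratio was -3.13 (-3.17 to -3.10) at day 6, -4.15 (-4.17 to -4.14) at day 10, -2.30 (-2.31 to -2.29) at day 12 and -4.03 (-4.80 to -3.34) at day 14. Day 10, the peak of miR-27 by RPM, was thus the lowest of these ratios, with an interval that overlapped that of day 14 only. This comparison was chosen after the lists had been seen.

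**Figure D5:**
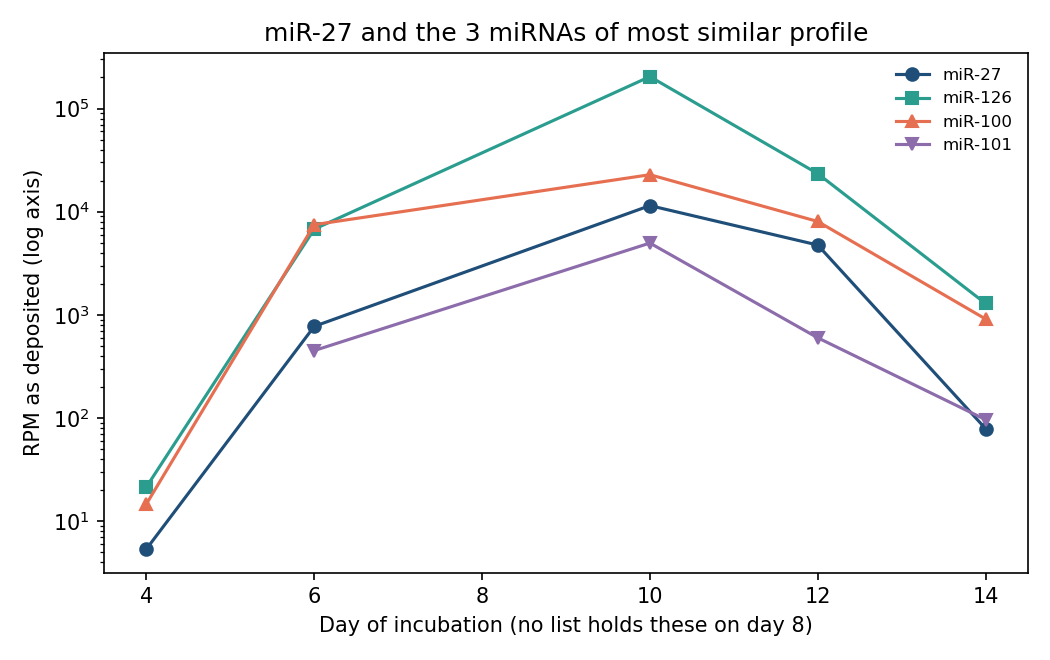
RPM on a log axis against day of incubation for miR-27 and for the 3 families of most similar profile. Lines join the libraries that list both the family and miR-27, which leaves out day 8. Among these libraries all 4 were highest on day 10, where miR-126 had 203858 RPM and miR-27 had 11449 RPM. miR-27, miR-126 and miR-100 were not listed on day 8.

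The lists were checked for markers of the tissue. Of the muscle miRNAs, miR-133 was listed from day 6 to day 14 and miR-499 at day 10, whereas miR-208 and miR-1 were in no list, and the summed level ran from 18.3 RPM at day 8 to 209064 RPM at day 10. The smooth muscle miRNAs miR-143 and miR-145 were in no list. White blood cell miRNAs (miR-142, miR-223 and miR-155; 2 of 3 listed anywhere) ranged up to 2866 RPM on day 10, and miR-144 of red blood cells was listed on days 4 and 8 only, at up to 638 RPM. Neural (miR-124, miR-9), liver (miR-122) and epithelial (miR-200, miR-205) miRNAs were listed in 5, 5 and 6 libraries, at up to 838, 534 and 957 RPM. On days 6 and 8 each of them stood above the muscle sum. Day 6 had 635, 534 and 957 RPM, against 327 RPM for muscle. Day 8 had 838, 219 and 499 RPM, against 18.3 RPM. On days 10, 12 and 14 the muscle sum was the higher, and on day 4 no muscle miRNA was listed. Of the fibroblast miRNAs (miR-21, miR-199 and miR-214), 2 of 3 were listed anywhere, and 1 of them on each of days 8, 10 and 12. The level was 20932 RPM on day 10 and 5433 RPM on day 8, both of miR-199, and 4931 RPM on day 12, of miR-21. By RPM the neural and red blood cell levels were highest on day 8, and the liver and epithelial levels on day 6. The muscle, endothelial, fibroblast and white blood cell levels were all highest on day 10 by RPM, as miR-27 was. Scaled by known reads or by clean reads miR-27 was highest on day 12, and the marker levels were not computed on those scales. How many of all known families were highest on day 10 was not counted, so the shared day is no finding about these markers. Except for endothelium, with 1 marker, these levels did not rest on the same miRNAs on every day, and miR-499 entered the muscle sum on day 10 only. The part of cell composition in the levels of miR-27 was not tested.

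Predicted targets were deposited for 10 miRNAs per library, and miR-27b was among them on days 14 and 4 only, with 81 and 88 targets. miR-23 was in none of the 6 target lists. Of 20 genes known as miR-27 targets in mammals, among them MEF2C, FOXO1, PPARG and NOTCH1, none was listed under miR-27b. No share over all genes was computed, so with only 81 and 88 names there this count says nothing about these genes. TBX2 and HIF1A were listed under other miRNAs, but both had been seen in the study's supplement before the 20 were written down, so their presence is no finding. The names that stood beside the 3 highest scores were BCLAF1 (448), PFKFB2 (436) and POLR2I (323) on day 14, and RBM19 (598), ZMYND8 (463) and RNF7 (436) on day 4, though the pairing of names with scores is in doubt. PFKFB2 of day 14, a regulator of glycolysis, and RNF7 of day 4, a ubiquitin ligase component, stood beside the same score and the same energy of -53.73 kcal/mol.

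The names and the scores of these lists could not be read as pairs. The mature sequence of miR-27 was the same on both days, and 65 pairs of a score and an energy stood in both lists, 80.2% of those of day 14 and 73.9% of those of day 4. Yet only 9 target names were shared (11.1% of day 14 and 10.2% of day 4), and 0 of them had the same score and energy on both days. ZMYND8 stood beside a score of 159 on day 14 and of 463 on day 4. In both lists the names under miR-27b ran in alphabetical order. The same held for the 4 other miRNAs in both target lists, with 178 shared pairs of score and energy and 0 with the same name.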

How the data were processed

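Small RNA of chick embryo heart had been sequenced in 6 libraries, 1 per stage, and the stage of each was taken from its sample labels. The authors trimmed adapters, placed the unique tags on version 2.1 of the Gallus gallus genome with BLAT, at most 1 mismatch allowed, and searched miRBase release 19. The submitters' processing notes also name TopHat and Cufflinks, with no version. The authors deposited, for each locus, the mature sequence and its count of reads, the hairpin with its folding energy, and the GC content in percent. The RPM values deposited by the authors equalled the count times 1 constant per library for every known row (within 0.1%). The score and energy of each predicted target were deposited by the authors in lists that name miRanda as the tool, and the methods give cut-offs of 100 for the score and -20 kcal/mol for target prediction. Columns were read by place because 1 header was shifted against its values, and 9 emptied lines were not analysed here.

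Members were joined by names and by hairpin overlap of at least 1 base, and a sequence was counted once per library. Counts carry exact Poisson intervals, shares Clopper-Pearson intervals, and ratios of counts the interval of the matching binomial share, all at 95%. The interval and likeness steps were tested on simulated data. The list of a library restricts lengths and low counts, which limits what can be compared between days. Named are the members, their cluster partners, 5 other clusters, the 3 families most like each member, and, of the targets, those in fixed lists and the 3 of highest score per library. miR-128, the use of miR-126 as a ratio, and the targets named for their shared values were chosen after the values were seen. TBX2 and HIF1A of the fixed lists had been seen in the study's supplement before those lists were written. Members and lists were chosen with earlier results of these data known. Gene order came from the RefSeq table of bGalGal1.mat.broiler.GRCg7b, which is not the build of the lists. Python 3.11.15, scipy 1.17.1, numpy 2.4.6, matplotlib 3.10.9 and ViennaRNA 2.7.2 were used. Alternatives were the known rows alone, the highest single sequence, the arm of the known mature sequence alone, a minimum of 10 reads, and scaling by known reads or by the clean reads that the paper's text states, the last without day 14. Adding the opposite arm and scaling by known reads of the same length were added after seeing the data.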

Additional observations from a re-analysis of the deposited data

How the results depend on the processing

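The day of the highest level depended on the scale. For miR-27 it was day 10 by RPM, day 12 scaled by known reads and scaled by clean reads (days 4 to 12 only), and day 4 scaled by known reads of the same length, a scale chosen after seeing the data that rests on 15 of 75 reads there. For miR-23 it was day 12 by RPM and day 8 scaled by known reads. Scaled by clean reads or by known reads of the same length, miR-23 was lower on day 8 than on day 6, the reverse of the order by RPM. The log2 ratio of day 12 over day 6 was 2.62 for miR-27 by RPM, 3.42 scaled by known reads and 2.51 scaled by clean reads, and for miR-23 it was 2.44, 3.24 and 2.32 on these scales. These 3 scales multiply a library by 1 constant, so ranks within it cannot change, and the median of the 87 shared known sequences moved with them, being -1.09, -0.29 and -1.20. Scaled by known reads of the same length, chosen after seeing the data, the log2 ratio was 0.46 for miR-27 and 0.76 for miR-23, under the 4-fold threshold, with a median of -0.07 and miR-27 ranked 32nd of 87, not 9th. That scale divides miR-27 by 21 nt reads held mostly by miR-126. It divides miR-23 by 23 nt reads on day 6 and by 21 nt reads on day 12. At least 4-fold higher on day 12 were 13 of the 87 by RPM, 18 scaled by known reads, 13 scaled by clean reads and 18 scaled by known reads of the same length. The known rows alone, the highest single sequence, the arm of the known mature sequence and the minimum of 10 reads gave the reported values, since each member had 1 sequence per library of at least 10 reads. Adding the opposite arm left the log2 ratios of miR-23 over miR-27 and of day 12 over day 6 inside their counting intervals. No paired analysis was possible because each stage had 1 library. The known lists of days 4 and 14 held the fewest reads, where miR-27 rested on 15 and 18 reads.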
